A study of Mus musculus with 6 samples.

Results

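Myc and the factors that build ribosomes were followed in mProx24 cells, a line of mouse kidney proximal tubule cells, across 6 culture conditions. The set held 47 genes by name: Myc, 6 genes of RNA polymerase I (Pol I) transcription, 8 of small nucleolar ribonucleoproteins (snoRNPs) and nucleolar organisation, 17 of small subunit processing and 15 of large subunit processing. All 47 were among the 34574 gene names on the arrays, and each was read from its brightest probe without an outlier mark. Of these, 46 were well above background on all 6 arrays, as were 14991 of all gene names. The exception was Utp18, a subunit of the UTP-B complex of the small subunit processome, whose probe was not well above background on any array and which enters no count below.

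Each condition was measured once, on 6 single-colour Agilent arrays of 1 slide, so no difference has a replicate check and no p-value is given. The control was kept at 20% oxygen in normal glucose. Another array was titled high glucose and the next high FFAs (free fatty acids), the latter with 150 µM palmitate bound to 0.15% bovine serum albumin for 9 h, both at 20% oxygen. The hypoxia array came from cells at 1% oxygen, with a stated exposure of 12 h, in normal glucose. The triple stimuli array combined 1% oxygen, high glucose and the same albumin-bound palmitate. The last array added the mTORC1 inhibitor rapamycin at 0.4 µg/ml from 12 h before palmitate. No added albumin is listed for the control or hypoxia arrays. The strain label of the line was C57B6, all cells grew in serum-containing Dulbecco's modified Eagle's medium, and no source used here gives the concentration of glucose or the vehicle of rapamycin. Whether the oxygen stayed at 1% during the 9 h of palmitate is not stated either.

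The labels of 2 arrays conflict. The scanner values titled high glucose were the same as the column titled high FFAs in the deposited value table, with an SD of the log2 difference of 2.87e-07, against 0.513 for the next closest column. The scanner values titled high FFAs in turn matched the column titled high glucose, and the other 4 arrays matched their own titles. These arrays are therefore called array A (scanner title high glucose, value table high FFAs) and array B (the reverse), and which of them received glucose and which palmitate is not settled here. The 3 arrays at 20% oxygen lay in the first row of the slide and the 3 at 1% in the second, so in comparisons across oxygen levels the slide row and the oxygen cannot be told apart.

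Ribosome assembly starts in the nucleolus, where Pol I transcribes the ribosomal RNA precursor, snoRNPs guide its chemical modification, and large sets of assembly factors cut, fold and package it into the small and large subunits. The transcription factor Myc, paired with Max, binds E-box DNA and is a well-known activator of genes at each of these steps, and mTORC1 is a second major regulator of the process. In proximal tubule cells ribosome output is tied to growth, repair and nutrient supply.

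The E-box letters CACGTG, which read the same on both strands, were searched in RefSeq promoter windows of build GRCm38.p6, each running from 250 bases before to 50 bases after the annotated start. Windows were found for 41 of the 47 members, and those of Myc, Gnl2, Rrp12, Fbl, Npm1 and Bop1 were not. Counted by gene, the motif stood in 9 of the 41 members (22.0%) and in 17 of 78 other ribosome biogenesis genes with a window (21.8%). Of the 14991 genes well above background on all 6 arrays 8004 had a window, and it stood in 971 of these (12.1%). It stood in 2187 of all 27025 genes with a window (8.09%). Counted by window, it stood in 7.15% of all 32851 windows. A match is a description of the letters and not a measured binding site. The 10 matches are shown because this is the DNA element that Myc with Max is known to bind, with the motif in capitals and up to 12 bases on either side.
Imp4 on chr1:34439696-34439725, plus strand, motif 121 bases before the start: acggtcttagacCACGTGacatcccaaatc
Nop2 on chr6:125131811-125131840, plus strand, motif 60 bases before the start: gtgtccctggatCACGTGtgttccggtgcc
Utp20 on chr10:88826765-88826789, minus strand, motif from base 38 of the transcript: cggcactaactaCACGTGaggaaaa
Pes1 on chr11:3963965-3963994, plus strand, motif from base 3 of the transcript: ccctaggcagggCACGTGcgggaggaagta
Mybbp1a on chr11:72441355-72441376, plus strand, motif from base 41 of the transcript: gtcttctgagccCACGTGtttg
Tsr1 on chr11:74898092-74898121, plus strand, motif from base 25 of the transcript: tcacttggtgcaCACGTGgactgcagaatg
Utp18 on chr11:93885769-93885798, minus strand, motif 20 bases before the start: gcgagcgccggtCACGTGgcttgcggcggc
Rrn3 on chr16:13780472-13780501, plus strand, motif 215 bases before the start: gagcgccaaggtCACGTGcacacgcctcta
Rrn3 on chr16:13780639-13780668, plus strand, motif 48 bases before the start: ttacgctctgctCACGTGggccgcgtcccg
Wdr43 on chr17:71616220-71616249, plus strand, motif from base 18 of the transcript: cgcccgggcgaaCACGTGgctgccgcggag

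Across the members the levels formed 1 recurring order. The biogenesis factors were highest on array A and lowest in hypoxia, higher again under triple stimuli, and back near the control when rapamycin was added. Myc shared the high levels on array A and under triple stimuli, but was near the control in hypoxia and was no lower with rapamycin. Levels below are log2 of the scanner's processed signal relative to the 75th percentile of its own array, so a difference of 1 is a 2-fold difference, and levels of different genes are not compared. Repeat spots of a probe within an array had an SD of 0.08, which gives 0.11 for a difference between 2 arrays and covers the spotting and reading error only.

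**Figure D1:**
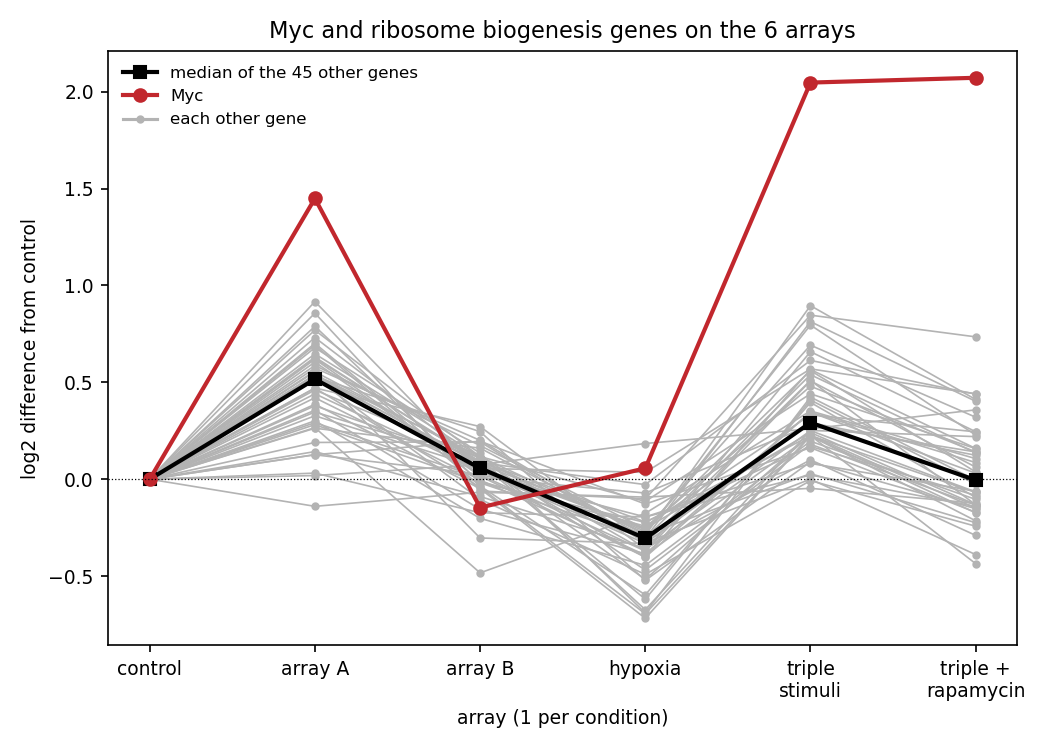
Log2 difference from the control array (vertical axis) on each of the 6 arrays (horizontal axis, 1 array per condition) for Myc (red), the 45 other measured genes (grey) and their median (black). Myc stands 1.45 above control on array A and 2.05 and 2.07 above it on the triple stimuli arrays without and with rapamycin, while the median of the others goes from 0.52 on array A to -0.30 in hypoxia and back to near 0 with rapamycin.

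Myc, read by a probe at chr15:61821417-61821476 (mm9, as are all probe positions below), had a level of 1.51 in the control, 2.96 on array A, 1.36 on array B, 1.57 under hypoxia, 3.56 under triple stimuli and 3.58 with rapamycin added. It was thus high on 3 arrays and low on the other 3, with a gap between them. The difference from control was 1.45 on array A (2.73-fold), and 0.576% of the genes measured stood further above the control there. Triple stimuli exceeded the control by 2.05 (4.13-fold) and hypoxia alone by 1.99 (3.97-fold), with 1.49% and 0.883% of genes ahead of Myc. Array B was 0.15 below the control and hypoxia 0.06 above it, both close to the repeat-spot error. Rapamycin with triple stimuli differed from triple stimuli by 0.02, and remained 2.07 above the control (4.20-fold).

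At 20% oxygen, array A carried higher levels of ribosome biogenesis factors of every class than the control. Of the 46 measured members 45 were higher (97.8%, against 48.6% of all genes), with a median difference of 0.52. The number that reached 1.4-fold (0.5 on the log2 scale) was 24, against 8% of the 17721 genes measured. None was 1.4-fold lower, where 6.55% of all genes were, and Myc alone reached 2-fold, against 1.56% of all genes. The median over all genes was -0.01, and over the 7425 genes within the members' own range of levels it was -0.02, with 5.71% of those genes 1.4-fold higher. Array B gave no such difference: the median of the members was 0.05, and 29 were above the control (63.0%, near the 56.7% of all genes). None reached 1.4-fold either way (2.59% of all genes did so upward and 2.42% downward). Among the genes within the members' range of levels these shares were only 0.16% and 0.30%.

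At 1% oxygen alone the members were lower than in the control. The median difference was -0.30, and only 3 members were above the control (6.52%, against 48.4% of all genes). Of the members 8 were at least 1.4-fold lower against 4.89% of all genes, while none was 1.4-fold higher against 9.58% of all genes. The genes within the members' range of levels had a median of -0.07. Hypoxia was the lowest of the 6 arrays for 39 of the 46 members (84.8%), against 19.2% of the 14991 genes measured on all arrays. This comparison runs across the rows of the slide.

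Adding glucose and albumin-bound palmitate at 1% oxygen, a comparison within a slide row, gave the largest median difference of the 8 comparisons, 0.65. Glucose, palmitate and albumin cannot be told apart in that comparison. All 46 members were higher under triple stimuli than in hypoxia, as were 46.5% of all genes. Of these members 33 were at least 1.4-fold higher against 10.8% of all genes, and none was 1.4-fold lower against 10.3%. At least 2-fold differences were seen for 7 members (3.5% of all genes): Myc, Gnl3, Wdr43, Tsr1, Ppan, Nop58 and Rrp12. Against the control, across slide rows, triple stimuli were higher for 44 members (95.7%, against 49.3% of all genes), with a median of 0.31. Of the members 14 reached 1.4-fold (13.2% of all genes), none was 1.4-fold lower (10.5%) and only Myc reached 2-fold (5.08%). Triple stimuli stood above array A for 12 of the 46 members (26.1%), against 44.4% of the 14991 genes measured on all arrays. The median of that difference, also across slide rows, was -0.09, from -0.53 for Utp20 to 0.60 for Myc.

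Rapamycin with triple stimuli brought the levels of most factors below those of triple stimuli alone. The median difference was -0.32 and 44 of 46 members were lower (95.7%, against 56.8% of the 14991 genes), the exceptions being Myc and Polr1c. The differences were small in size: 4 members, Rrp9, Rrp1b, Ppan and Nip7, were at least 1.4-fold lower (8.7%, near the 6.57% of all genes). Of the 7425 genes within the members' range of levels 2.41% were that much lower. The count of members was 2 under quantile normalization. None was 1.4-fold higher, against 5.5% of all genes and 0.714% of those within the range of levels. For 41 members (89.1%) the level with rapamycin lay between those of hypoxia and triple stimuli, with triple stimuli the higher, an order held by 18.5% of all genes measured on every array. Against hypoxia, the rapamycin array had a median of 0.37, with 13 members at least 1.4-fold higher (9.27% of all genes), none 1.4-fold lower (11.5%) and Myc alone 2-fold higher (3.02%). Against the control, across slide rows, the median was 0.01, from -0.01 to 0.08 under the other processing settings. The members split into 23 above (50%, near the 45.8% of all genes) and 23 below. Only 2 members, Myc and Nop14, were 1.4-fold higher (13% of all genes), none was 1.4-fold lower (11.6%) and 1, Myc, was 2-fold higher (4.54%).

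**Figure D2:**
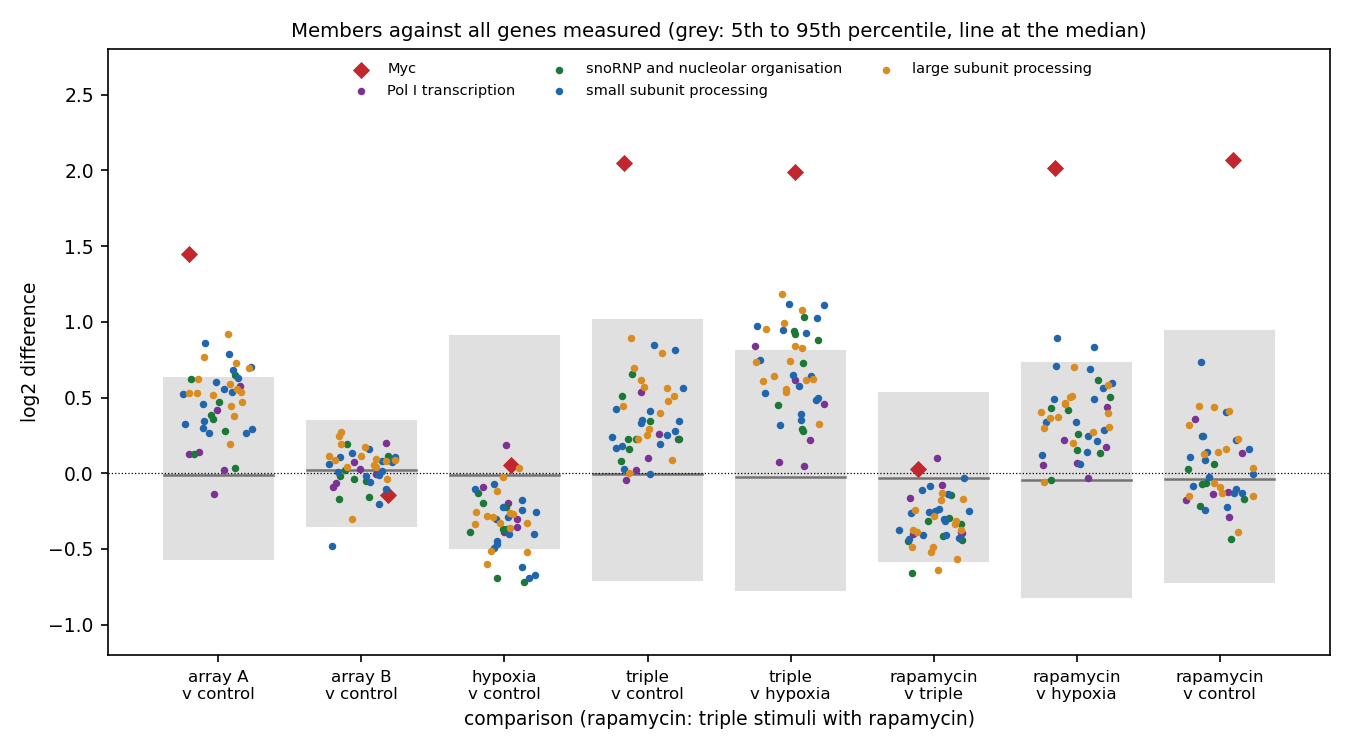
Log2 difference (vertical axis) of each measured member in the 8 comparisons (horizontal axis), coloured by role with Myc as a red diamond; the grey bar runs from the 5th to the 95th percentile of all genes measured in that comparison and its line is their median. Members sit above that line on array A and under triple stimuli, below it in hypoxia and with rapamycin against triple stimuli, and around it on array B.

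The genes of Pol I transcription had the smallest class median on array A and for triple stimuli against hypoxia. Their median was 0.13 on array A and -0.25 in hypoxia, both against control, 0.34 for triple stimuli against hypoxia and -0.28 for rapamycin with triple stimuli against triple stimuli. Polr1b, the second-largest Pol I subunit (probe at chr2:128951870-128951929), measured 1.80 in the control, 2.38 on array A, 2.0 on array B, 1.50 under hypoxia, 2.34 under triple stimuli and 1.94 with rapamycin. It was the only gene of this class that reached 1.4-fold on array A, with a difference of 0.57. Mybbp1a, a Myb-binding nucleolar protein that associates with Pol I (chr11:72264991-72265050), measured 6.76, 7.18, 6.75, 6.36, 6.98 and 6.58 in the same order of arrays. Array A and triple stimuli were its highest, and hypoxia its lowest. Polr1a, the largest subunit (chr6:71929251-71929310), measured 4.29, 4.44, 4.20, 3.94, 4.39 and 4.0, so that hypoxia and rapamycin were the low arrays. A dimmer probe for Polr1a gave 0.68 for array A against control where the brighter one gave 0.14, so its size on array A depends on the probe.

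Rrn3, the factor that makes Pol I competent to initiate and a known target of mTOR signalling, was 0.13 higher on array A, 0.19 lower in hypoxia, 0.22 higher under triple stimuli than in hypoxia and 0.16 lower with rapamycin. These differences are little above the repeat-spot error. Ubtf, the upstream binding factor that holds ribosomal DNA open (chr11:102166995-102167054), had the narrowest range of the class, 0.14, with levels of 7.44, 7.30, 7.37, 7.34, 7.39 and 7.31. It was the only measured member not higher on array A than in the control. A dimmer Ubtf probe was 0.45 lower under triple stimuli and 0.66 lower with rapamycin than in the control, and 0.11 lower under triple stimuli than in hypoxia, so the narrow range depends on the probe. Polr1c, a subunit shared with Pol III, was 0.18 higher in hypoxia and 0.36 higher with rapamycin than in the control. With Myc and Noc3l it was 1 of the 3 members above the control in hypoxia.

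Genes of the snoRNPs and of nucleolar organisation showed a lower hypoxia level and a wide step between hypoxia and triple stimuli. The class median was 0.37 on array A, -0.37 in hypoxia, 0.80 for triple stimuli against hypoxia and -0.37 for rapamycin against triple stimuli. Rrp9, the U3-specific protein (chr9:106386845-106387461), measured 1.88 in the control, 2.35 on array A, 1.84 on array B, 1.19 under hypoxia, 2.11 under triple stimuli and 1.44 with rapamycin. Its difference of -0.66 with rapamycin was the largest drop of any member in that comparison, and hypoxia and rapamycin were its lowest arrays. Dkc1, the pseudouridine synthase of box H/ACA snoRNPs and telomerase (chrX:72354473-72354532), measured 0.90, 1.28, 0.85, 0.18, 1.12 and 0.68. Hypoxia was 0.72 below the control, the largest reduction among the members. Nop58, a core protein of box C/D snoRNPs (chr1:59768230-59768289), measured 4.13, 4.75, 4.15, 3.76, 4.79 and 4.37, with array A and triple stimuli alike and highest.

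Nop56, the partner of Nop58 in box C/D particles, was 0.65 higher on array A, 0.37 lower in hypoxia, 0.88 higher under triple stimuli than in hypoxia and 0.45 lower with rapamycin. Its other 2 probes gave 0.71 and 0.63 on array A. Nolc1, a chaperone of snoRNPs in the nucleolus, had differences of 0.36, -0.39, 0.73 and -0.31 in those 4 comparisons. Ncl, nucleolin, which binds nascent ribosomal RNA, had 0.28, -0.22, 0.45 and -0.29. The methyltransferase Fbl, fibrillarin, had 0.13, -0.13, 0.29 and -0.33. Npm1, the nucleolar chaperone nucleophosmin (chr11:33052565-33052624), had the narrowest range of the class, 0.28, at 7.55, 7.58, 7.38, 7.36, 7.63 and 7.49. Npm1 has near-identical pseudogene copies, and 4 further probes gave 0.06 to 0.37 on array A, so its small differences are uncertain.

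Small subunit processing genes had a median of 0.53 on array A, with 9 of 16 at least 1.4-fold higher (8% of all genes), -0.35 in hypoxia, 0.65 for triple stimuli against hypoxia and -0.26 for rapamycin against triple stimuli. Tsr1, a GTPase-like factor of late small subunit maturation (chr11:74722413-74722472), had the widest range of any member after Myc. Its levels were 2.70 in the control, 3.38 on array A, 2.83 on array B, 2.01 under hypoxia, 3.12 under triple stimuli and 2.69 with rapamycin. By this probe the rapamycin level matched the control to within the repeat-spot error, but a second probe was 0.25 above the control with rapamycin. On array A that second probe gave 0.66 against 0.68. Rrp12, which takes part in export and maturation of pre-ribosomes (chr19:41945749-41945925), measured -0.04, 0.59, 0.04, -0.66, 0.37 and -0.07. Only array A and triple stimuli were clearly above the control, and hypoxia was 0.62 below it.

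Rcl1, a factor required for early cleavages of the precursor (chr19:29217877-29217936), measured 1.51, 2.06, 1.62, 0.83, 1.76 and 1.73. The rapamycin level was within 0.03 of triple stimuli, unlike most members. Wdr43, a subunit of the t-UTP complex that joins transcription to processing (chr17:72007156-72007215), measured 2.92, 3.71, 2.90, 2.61, 3.73 and 3.32. Array A and triple stimuli were about equal and rapamycin lay between hypoxia and triple stimuli, while still 0.40 above the control. Imp3, of the U3-bound Mpp10 complex (chr9:56786107-56786166), had the narrowest range of the class, 0.36, with levels of 4.64, 4.94, 4.65, 4.57, 4.92 and 4.78. Its array A and triple stimuli levels were the high ones all the same.

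Nop14, which works with Noc4l in small subunit assembly, had the largest difference from control on the rapamycin array after Myc. It was 0.86 above control on array A, 0.10 below it in hypoxia, 0.85 above it under triple stimuli and 0.73 above it with rapamycin. Noc4l itself was only 0.26 above control on array A, 0.29 below in hypoxia and 0.03 above under triple stimuli. Of the t-UTP proteins, Utp15 had differences of 0.70 on array A, -0.24 in hypoxia, 0.57 for triple stimuli against hypoxia and -0.09 for rapamycin against triple stimuli. Heatr1, another t-UTP protein, had 0.30, -0.44, 0.64 and -0.30 in the same order. Wdr75, the last of that complex in the set, had 0.54, -0.40, 0.97 and -0.41. All of them were higher on array A and lower in hypoxia. Pwp2, of the UTP-B complex, had 0.46, -0.47, 0.65 and -0.31. Utp20, a scaffold protein of the processome, had 0.52, -0.49, 0.48 and -0.24 and, at -0.01, did not exceed the control under triple stimuli.

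Nat10, which acetylates small subunit ribosomal RNA, had 0.60, -0.40, 0.75 and -0.26. Imp4, a partner of Imp3 in the Mpp10 complex, had 0.35, -0.22, 0.39 and -0.25. Bysl, bystin, a pre-small-subunit factor, had 0.33, -0.25, 0.49 and -0.37. The helicase Ddx10 had 0.27, -0.18, 0.53 and -0.25, and was the member furthest below the control on array B, at -0.48.

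Large subunit processing genes had the greatest share past 1.4-fold, 11 of 15 higher on array A (8% of all genes) and 14 of 15 higher for triple stimuli against hypoxia (10.8%). The class medians were 0.54 on array A, -0.29 in hypoxia, 0.74 for triple stimuli against hypoxia and -0.37 for rapamycin against triple stimuli. Wdr12, of the PeBoW complex that processes large subunit precursors (chr1:60134982-60135040), measured 3.45 in the control, 4.15 on array A, 3.42 on array B, 2.86 under hypoxia, 3.85 under triple stimuli and 3.36 with rapamycin. Hypoxia was its lowest array by a clear margin. Pes1, the second PeBoW subunit (chr11:3879948-3880007), measured 3.1, 3.63, 3.35, 2.58, 3.19 and 2.95, and its triple stimuli level barely exceeded the control. A dimmer probe for Pes1 was 0.13 higher in hypoxia where the brighter was 0.52 lower, so that reduction rests on a single probe. Bop1, the remaining subunit, was 0.19 higher on array A, 0.33 lower in hypoxia and 0.39 lower with rapamycin than in the control.

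Gnl3, nucleostemin, a nucleolar GTPase abundant in proliferating cells (chr14:31826877-31826936), measured 1.66, 2.57, 1.70, 1.37, 2.55 and 2.07. After Myc it had the largest difference on array A, 0.92, and under triple stimuli against hypoxia, 1.18. Ppan, a homologue of yeast Ssf1 in early large subunit assembly (chr9:20696546-20696605), measured 3.48, 4.25, 3.59, 3.20, 4.27 and 3.70. Array A and triple stimuli again stood together above the rest. Noc3l, of the Noc2-Noc3 pair that accompanies large subunit precursors (chr19:38863163-38863222), had the narrowest range of the class, 0.57, at 0.96, 1.48, 1.02, 1.00, 1.53 and 1.40. It was not lower in hypoxia and stayed 0.44 above the control with rapamycin, and in these 2 respects it differed from most of the class. Gnl2, a GTPase of large subunit export, likewise was 0.03 below control in hypoxia and 0.44 above it with rapamycin.

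Nop2, a methyltransferase of large subunit ribosomal RNA, had differences of 0.73 on array A, -0.26 in hypoxia, 0.95 for triple stimuli against hypoxia and -0.37 for rapamycin against triple stimuli. Nip7, a factor for large subunit assembly, had 0.62, -0.27, 0.83 and -0.52 in the same order, and its dimmer probe gave 0.17 on array A. The helicase Ddx18 had 0.59, -0.26, 0.74 and -0.34. Ddx21, a helicase that joins Pol I transcription to processing, had 0.44, -0.33, 0.62 and -0.17. These 4 all followed the order of the class. Rrp1b had 0.56, -0.33, 0.84 and -0.64. The rRNA methyltransferase Ftsj3 had 0.47, -0.36, 0.61 and -0.32. Nop16 had 0.38, -0.52, 0.74 and -0.38. Noc2l, the partner of Noc3l, had 0.54, -0.11, 0.56 and -0.28, and the files give no position for its probe.

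**Figure D3:**
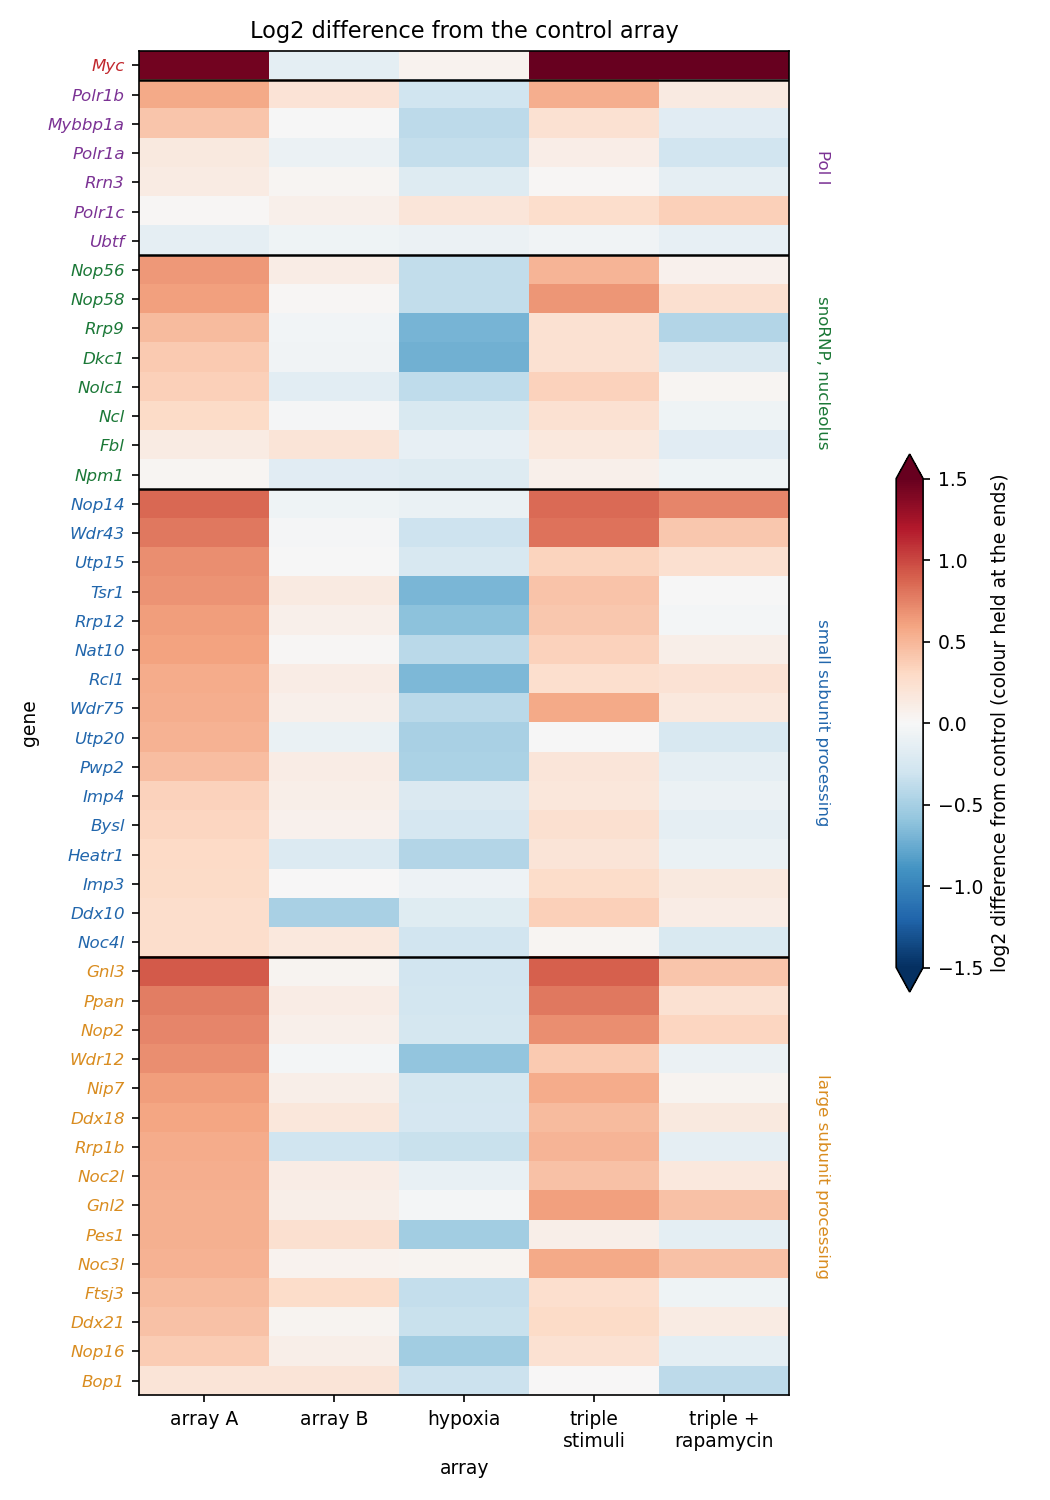
Log2 difference from the control array for the 46 measured genes (rows, grouped by role and ordered by array A) on the other 5 arrays (columns), red higher and blue lower, with colour held at 1.5. Red columns on array A and under triple stimuli and a blue column in hypoxia run through the 4 groups below Myc, which itself is 0.06 above the control in hypoxia, with Ubtf, Polr1c and Npm1 among the palest rows.

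Among the 15 members with several probes, 17 of the 19 further probes could be measured. All 17 had the sign of the chosen probe on array A and for rapamycin against triple stimuli, 15 in hypoxia, 14 for triple stimuli against control, 16 for triple stimuli against hypoxia and 15 for rapamycin against hypoxia. On array B, where differences were small, 8 of 17 had the same sign, and for rapamycin with triple stimuli against control 9 of 17, with a median gap of 0.17 between probes.

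Some comparisons share no array and so can be set beside each other. Array A against control and triple stimuli against hypoxia had the same sign in 45 of 46 members, against 72.0% of the 14991 genes. All 46 members were higher under triple stimuli than in hypoxia, so that count only repeats the number above control on array A. Over the 46 members Pearson r was 0.91 and Spearman rho 0.86, with r 0.64 over the 14991 genes. Without Myc, which lies far from the rest, r was 0.87 over 45 genes. Members with a larger difference on array A thus tended to have a larger one between triple stimuli and hypoxia. For array B against control and triple stimuli against hypoxia the sign was shared by 29 members, again the number above control, with r -0.06. Hypoxia against control and rapamycin against triple stimuli shared the sign in 45 members, against 51.2% of all genes. As 43 members were lower in hypoxia and 44 with rapamycin, most of that agreement follows from those counts. Here r was 0.56 and rho 0.55, or r 0.52 without Myc, against r -0.06 over all genes. The points are genes measured on the same 4 arrays and are not independent.

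**Figure D4:**
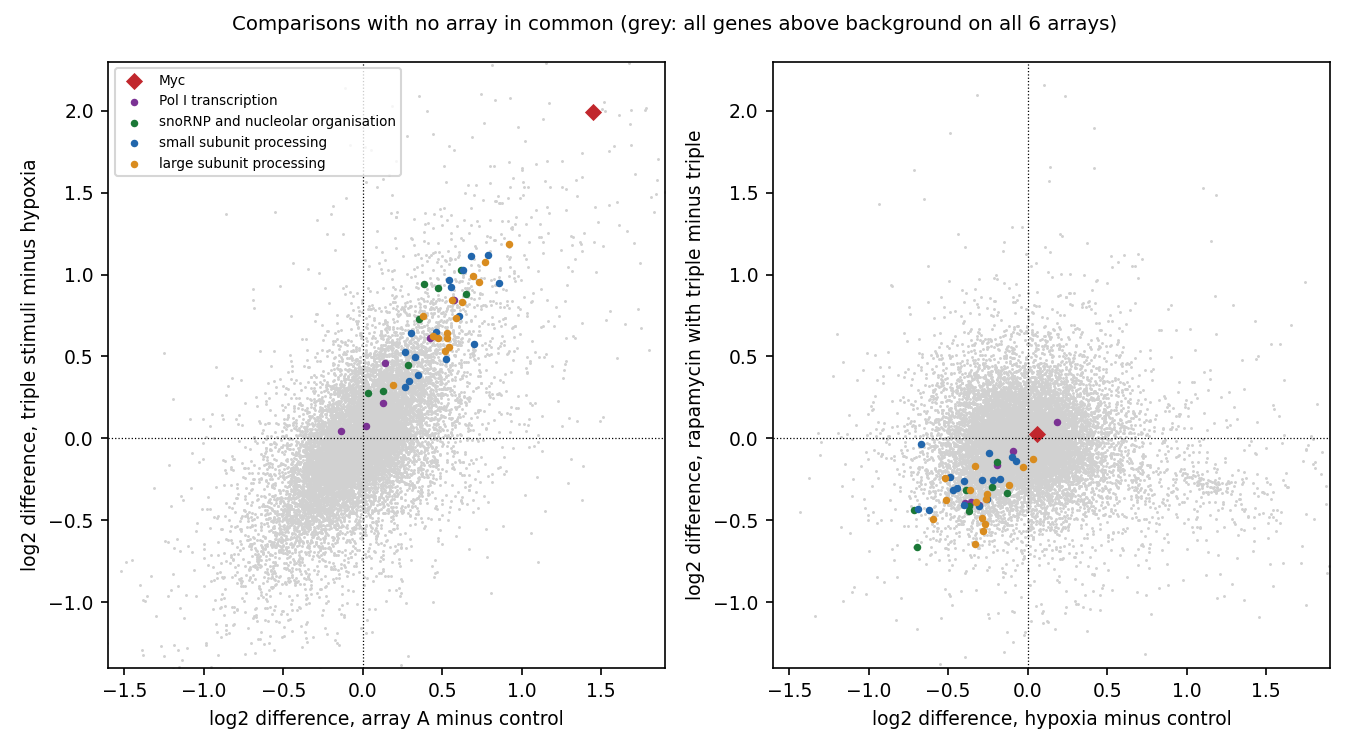
Log2 differences in 2 pairs of comparisons that share no array: triple stimuli minus hypoxia against array A minus control (left), and rapamycin minus triple stimuli against hypoxia minus control (right); coloured points are members by role, grey points are all genes above background on the 6 arrays, and points beyond the axis limits are not drawn. Members lie along a rising line on the left with r 0.91 (0.87 without Myc), and sit almost wholly in the lower left part on the right.

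Members with and without the motif had close medians in some comparisons and not in others. The 8 measured members with CACGTG in their window had a median of 0.53 on array A, against 0.49 for the 32 with a window and no match. For triple stimuli against hypoxia the medians were 0.61 and 0.73, and for rapamycin against triple stimuli -0.31 and -0.32. The medians were 0.05 and 0.04 on array B, -0.35 and -0.32 in hypoxia, and 0.31 and 0.38 for rapamycin against hypoxia. Against control they were 0.20 and 0.34 under triple stimuli, and -0.11 and 0.07, of opposite sign, with rapamycin.

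A wider list of 102 other ribosome biogenesis genes, of which 96 were on the arrays, was compared with the members. Its medians had the same signs and smaller size in all comparisons but rapamycin with triple stimuli against control. There the members' median was 0.01 and that of the wider list -0.03. Its median was 0.27 on array A, with 17 of 96 genes at least 1.4-fold higher (17.7%, against 8% of all genes). In hypoxia it was -0.27, with 7 of 96 that much lower (7.29%, near the 4.89% of all genes). Of the genes within the members' range of levels 3.03% were that much lower in hypoxia. For triple stimuli against hypoxia the list median was 0.50, with 47 of 95 that much higher (49.5%, against 10.8%). For rapamycin against triple stimuli it was -0.24, with 2 of 95 that much lower (2.11%). This was under the 6.57% of all genes and near the 2.41% of those within the members' range of levels. Hypoxia was the lowest array for 68 of 94 (72.3%). Rrs1, a large subunit assembly factor, measured 1.78, 2.51, 1.89, 1.11, 2.41 and 2.13 in the order used above, from control to rapamycin. Taf1d, a subunit of the Pol I selectivity factor, measured 0.26, 1.22, 0.27, 0.24, 1.59 and 1.54, and like Myc was about equal with and without rapamycin. Utp14a, a small subunit processome protein, measured 0.92, 1.55, 0.34, 0.54, 1.42 and 1.24.

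Of 16 Myc partners and antagonists 14 were on the arrays and 10 were above background on all 6. Mnt, which represses Myc sites with Max, measured 3.42, 4.09, 3.47, 4.37, 4.60 and 4.74, with the 3 arrays at 1% oxygen the highest. Mxd3, a further Max-bound repressor, measured 1.00, 0.03, 1.13, 0.60, -0.18 and 0.52, so it was lowest on the arrays where Myc was high without rapamycin. Mxd4, of the same family, measured 1.01, 0.13, 1.24, 1.04, 0.49 and 1.26, low on the same arrays. Max, the shared partner, measured 3.42, 3.79, 3.21, 3.29, 3.76 and 3.48 and is named here after its values were seen.

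Established Myc targets outside the nucleolus (38 genes) had medians of 0.10 on array A, -0.18 in hypoxia, 0.19 for triple stimuli against hypoxia and -0.31 for rapamycin against triple stimuli. Among those above background on all 6 arrays, the 3 widest-ranging genes were Hk2, a hexokinase, at 1.88, 2.91, 1.65, 3.26, 3.67 and 3.20; Tfrc, the transferrin receptor, at 1.59, 2.18, 1.40, 1.11, 1.84 and 0.82; and Nampt, which makes an NAD precursor, at 2.79, 3.22, 2.77, 4.10, 3.93 and 3.53. Hk2 and Nampt were high at 1% oxygen, unlike the members, while Tfrc was low in hypoxia and lowest with rapamycin. Pol III genes (21) had medians of 0.04, -0.08, 0.15 and -0.11 in those 4 comparisons. Polr3f measured -0.07, -0.27, -0.32, -0.51, 0.86 and -0.57, high under triple stimuli alone. Polr3d measured 0.52, 1.17, 0.58, 0.13, 1.02 and 0.97, lowest in hypoxia.

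Genes of p53 and the 5S ribonucleoprotein, the nucleolar stress arm, were 8 in number, 7 of them above background on all 6 arrays. The remaining gene, Cdkn1a, a p53 target that inhibits cell cycle kinases, had the widest range and is named after its values were seen. Its control level was not well above background, and it was at least 1.02 higher in hypoxia, 1.27 under triple stimuli and 1.45 with rapamycin on the log2 scale. Mdm4, an inhibitor of p53, measured -0.92, -0.34, -0.61, -0.59, 0.04 and -0.02, highest on both triple stimuli arrays. Rrp8, a nucleolar methyltransferase, measured -0.63, -0.46, -0.39, -1.06, -0.29 and -0.28. Trp53, which encodes p53, measured 1.02, 1.33, 1.04, 0.98, 1.53 and 1.35.

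The label of the cells was checked against markers. Of 17 genes listed as proximal tubule markers 8 were well above background on all 6 arrays, among them Lrp2, Cubn, Aqp1, Cdh16 and Pax8. Another 8 were so on none, among them Slc34a1, Slc5a2 and Hnf4a, so the list alone does not settle the segment. The summed log2 level of that list was 7.23 in the control, 7.32 on array B and 7.55 in hypoxia, and 6.72 on array A, 6.82 under triple stimuli and 6.65 with rapamycin, lowest on the 3 arrays where Myc was high. That sum is mostly the signal of Cdh16, which was 0.53 lower on array A, 0.40 lower under triple stimuli and 0.53 lower with rapamycin than in the control. Other markers of the list moved in both directions. Under triple stimuli Slc4a4 was 1.77, Ggt1 0.76 and Pax8 0.39 above the control, while Lrp2 was 1.10, Cdh6 1.01 and Aqp1 0.93 below it. The list median against control was 0.03 under triple stimuli, with 5 of 9 measured markers higher. That median was -0.22 on array A, with 4 of 9 higher, and -0.35 with rapamycin, with 3 of 8 higher. Of the markers of other cell types, 0 of 7 fibroblast genes, 1 of 6 endothelial genes, 1 of 9 genes of the loop of Henle and distal tubule and 4 of 6 leukocyte genes were above background on all 6 arrays. The endothelial gene was Kdr and the loop and distal tubule gene was Aqp2. The pan-leukocyte marker Ptprc was not above background on any array. The summed level ran from -1.84 to -1.10 for fibroblast, 2.91 to 3.34 for endothelial and -0.58 to -0.23 for loop and distal tubule genes, and was 5.10 in hypoxia and 4.41 to 4.64 elsewhere for leukocyte genes. Within the leukocyte list Cd68, a lysosomal protein of macrophages that other cells also express, is named after its values were seen. It was 1.92 above the control on array A and 1.39 above it under triple stimuli, and 0.78 lower with rapamycin than under triple stimuli. Csf1r of the same list went the other way, 0.50 below the control on array A and 0.09 below it under triple stimuli. With rapamycin Csf1r was 0.28 lower than under triple stimuli. Itgam and Cd3e were 0.16 and 0.03 above the control on array A. The part of these shifts in the members' results was not tested. Between 40.3% and 43.8% of spots were well above background per array and none was saturated. In bulk RNA a lower level per cell and fewer cells with the transcript cannot be told apart.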

How the data were processed

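RNA of 6 cultures was labelled with Cy3 and hybridised to 1-colour Agilent arrays read with Feature Extraction 10.7.3.1, per the submitters' processing notes. Processed intensity per spot in the deposited scanner files was background-subtracted and detrended, per the file headers. The authors' deposited table holds, as its values show, the ratio of that intensity to the 75th percentile of the array on a linear scale, with scale and direction found from the scanner values and column medians of 0.0505 to 0.0562; it was used to check labels and as an alternative. Each spot's log2 intensity was set relative to the 75th percentile of its array and spots of a probe were averaged (Python 3.11.15, pandas 2.3.3). Of 55681 probes 323 with outlier marks were left out, and each gene took its brightest probe. A gene entered a comparison if well above background on at least 1 of its arrays, and the dim side was raised to the lowest level above background. Differences were called at 1.4-fold and 2-fold, with no test, since 1 array per condition limits the precision. The 8 alternatives used limma 3.58.1 for normexp with an offset of 50. Six-array values are given for Myc, for the widest-ranging members and the narrowest of each role, and for the 3 widest-ranging genes of each pathway list among those well above background on all 6 arrays, of which 1 is not reported here. Members and lists were chosen with earlier results of these data known. The comparison script was tested on simulated data.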

Additional observations from a re-analysis of the deposited data

How the results depend on the processing

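The members' median difference kept its sign in 7 of the 8 comparisons under all 8 alternatives, and moved by less than the repeat-spot error throughout: from 0.47 to 0.53 on array A, -0.34 to -0.28 in hypoxia, 0.62 to 0.67 for triple stimuli against hypoxia and -0.32 to -0.25 for rapamycin against triple stimuli. The exception in sign was rapamycin with triple stimuli against control, from -0.01 to 0.08. Of the counts of members past a threshold, 293 values were within 1.5 times the main count and 3 were not. Members at least 1.4-fold lower on array B than in the control numbered 1 in place of 0 when the 75th percentile was taken over detected probes, and 1 when differences were centred within bands of spot rows. Members at least 1.4-fold lower with rapamycin than under triple stimuli numbered 2 in place of 4 under quantile normalization. Of the values for single members 72 moved beyond the repeat-spot error and 2872 did not: 32 when all probes of a gene were averaged, 27 under normexp and 13 under quantile normalization. Of the pathway list medians 6 moved and 314 did not. The causes were not tested. No paired analysis was possible because each condition has 1 array. Signal over background limits only Utp18, and the lack of replicate cultures limits every difference.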
